A study of Arabidopsis thaliana with 6 samples.

Results

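The genes described here encode the last enzymes of trehalose metabolism in Arabidopsis thaliana, 9 trehalose phosphate phosphatases (TPPA, TPPB and TPPD to TPPJ) and the trehalase TRE1. They were taken as 10 listed loci of the 32833 loci counted, and the counts of their annotated transcripts were summed per locus. RNA came from whole seedlings of the Columbia genotype that germinated for 3 d in darkness, either with 0.7 ppm ethylene (3 libraries) or in air without it (3 libraries), and then grew for 5 d in light without ethylene. All seedlings therefore shared the dark start, the light period and the genotype, and differed in the gas of the first 3 d. The comparison asks which transcript differences were present after the light period. No library was taken at the end of the dark period, so when a difference arose was not tested. The labels do not tie the libraries to separate cultures, so each p-value reflects only the scatter among these 6 samples, which could be technical.

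Trehalose 6-phosphate is made from UDP-glucose and glucose 6-phosphate by trehalose phosphate synthase, of which TPS1 is the main active form in Arabidopsis. Trehalose phosphate phosphatases remove its phosphate and leave trehalose, and trehalase splits trehalose into glucose. Trehalose 6-phosphate is known as a signal of sucrose supply in plants and inhibits the starvation kinase SnRK1 in extracts of young tissue, whereas trehalose itself is normally scarce.

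Seedlings pretreated with ethylene had much less transcript of the trehalase gene and slightly more of the most highly counted phosphatase gene. The log2 level of TRE1 fell by 2.11 ± 0.24 (SE, n = 3 per group), which is 4.32-fold lower. TPPG rose by 0.41 ± 0.13, a 1.33-fold higher level. Of the 10 genes, 9 passed the filter on low counts, and these 2 were called; the test was edgeR's quasi-likelihood test, with p-values adjusted by the Benjamini-Hochberg (BH) method across 17887 loci and a threshold of 0.05. Over all those loci 32.6% were called, 15.8% higher and 16.8% lower, so the share called among the 9 was no greater than that background. The size of the TRE1 fall stood further out, since 0.827% of the loci tested fell as much or more, 148 loci in all. Over the 9 tested genes the median log2 fold change was 0.41, against 0.02 over all loci.

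**Figure D1:**
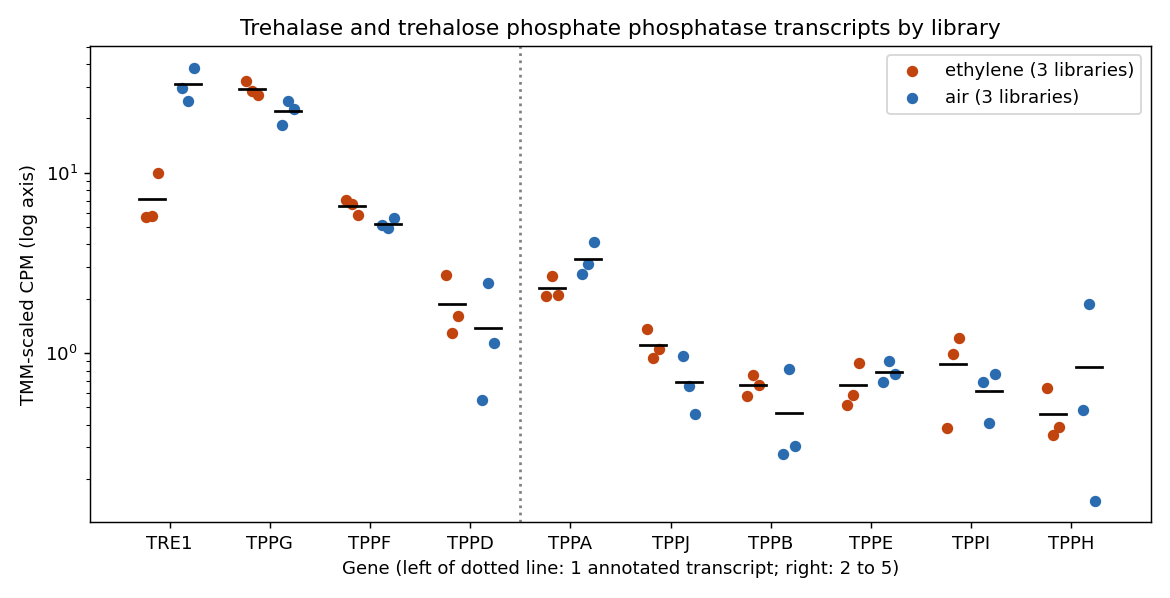
Level of each of the 10 genes in CPM (log axis), counts relative to library size after TMM scaling, with each point 1 library and each black line the mean of 3 libraries; genes left of the dotted line have 1 annotated transcript and those right of it have 2 to 5. The ethylene libraries of TRE1 lie between 5.67 and 9.91 CPM, below the air libraries at 25.0 to 38.2 CPM.

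TRE1 (AT4G24040) is the trehalase gene of Arabidopsis, and its enzyme sits at the plasma membrane and acts on trehalose outside the cell. It had 88, 98 and 179 counts in ethylene replicates 1 to 3, against 425, 306 and 502 counts in air replicates 1 to 3. As CPM, counts relative to library size after scaling by TMM factors, these were 5.67, 5.73 and 9.91 in the ethylene libraries and 29.3, 25.0 and 38.2 in the air libraries. The groups did not overlap, and the highest ethylene library, replicate 3, was well below the lowest air library, replicate 2. The means were 7.10 ± 2.43 CPM after ethylene and 30.8 ± 6.73 CPM after air (SD, n = 3 each). The fall was called by edgeR's quasi-likelihood test (adjusted p = 0.000162 with BH) and by DESeq2 (adjusted p = 6.11e-18 with BH). In the authors' deposited table the TRE1 transcript had a log2 fold change of -2.11 with an adjusted p of 6.74e-18. Without ethylene replicate 3 the fall was 2.44, and over the 6 ways of leaving out 1 library the log2 fold change lay between -2.44 and -1.94, with 0.00176 the highest adjusted p in edgeR with BH.

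The sequence before the start of TRE1 is shown because this gene carries the main difference. It is the RefSeq sequence of assembly TAIR10.1, plus strand, chr4:12487790-12488039, the 250 bases before the annotated gene start. The sources used here do not give the genome build behind the deposited counts, and the coordinates are those of the RefSeq annotation.
TRE1 promoter: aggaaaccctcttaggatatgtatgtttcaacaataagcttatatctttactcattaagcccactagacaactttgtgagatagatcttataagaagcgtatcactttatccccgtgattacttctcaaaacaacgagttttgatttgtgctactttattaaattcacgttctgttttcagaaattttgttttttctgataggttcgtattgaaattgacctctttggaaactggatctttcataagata
Both strands of the 250-base promoters of the 10 genes were searched for 4 motifs: the G-box CACGTG, the GCC box GCCGCC bound by ethylene response factors, the cold and drought core CCGAC, and the sugar-related element TATCCA. None of these strings of letters is in the TRE1 window, which says nothing about the factors that bind them elsewhere. The shares of 27442 promoters of protein-coding genes that held them were 6.49% for CACGTG, 1.87% for GCCGCC, 12.0% for CCGAC and 13.6% for TATCCA.

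Among 17886 other tested loci, those whose log2 CPM followed TRE1 most closely over the 6 libraries were WRKY45, a WRKY transcription factor gene (Pearson r = 0.9998), NRT1.8, a nitrate transporter gene (r = 0.9997) and AT1G36060 (r = 0.9993). NRT1.8 had 16.2, 16.6 and 33.3 CPM in ethylene replicates 1 to 3, against 138.1, 103.7 and 186.4 CPM in air replicates 1 to 3. WRKY45 had 8.25, 8.19 and 10.7 CPM in the ethylene libraries, against 18.1, 16.5 and 20.2 CPM in the air libraries. Both genes were picked for their correlation with TRE1, so a shared order of the libraries is no separate result. In both genes, as in TRE1, ethylene replicate 3 was the highest of its group and air replicate 2 the lowest of its own. These are descriptions over 6 libraries in 2 groups that share depth and scaling. A correlation above 0.95 was found for 1235 loci.

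TPPG (AT4G22590) encodes a phosphatase whose loss was reported to alter the response of guard cells to abscisic acid. It was the most highly counted phosphatase, with 497, 484 and 488 counts in ethylene replicates 1 to 3, against 267, 304 and 295 in air replicates 1 to 3. These were 32.0, 28.3 and 27.0 CPM after ethylene and 18.4, 24.9 and 22.5 CPM after air. All 3 ethylene libraries lay above all 3 air libraries, with the lowest ethylene library close to the highest air library. The rise was called by edgeR (adjusted p = 0.0394 with BH) and DESeq2 (adjusted p = 0.0450 with BH). In the authors' deposited table the transcript had a log2 fold change of 0.41 with an adjusted p of 0.0349. The call was lost in edgeR with BH adjustment on leaving out ethylene replicate 1 (adjusted p = 0.129), replicate 2 (0.0850) or replicate 3 (0.0565), or air replicate 1 (0.171) or replicate 3 (0.0628), and the log2 fold change then lay between 0.28 and 0.46.

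TPPF (AT4G12430), a phosphatase linked to drought tolerance, is the closest relative of TPPG in this family. Over 1104 aligned coding bases the pair were 83.3% identical, the highest value among the 36 pairs of phosphatase genes, which started at 63.0%. The same alignment gave 68.2% to 71.6% between the phosphatase genes and TRE1, an unrelated gene, so lower values say little. TPPF had 110, 114 and 105 counts after ethylene, against 74, 60 and 74 after air, or 7.09, 6.67 and 5.81 CPM against 5.10, 4.91 and 5.63 CPM. The groups did not overlap, as in 47.7% of the loci tested, but the log2 fold change of 0.32 ± 0.18 (SE, n = 3 per group) did not pass the test in edgeR with BH adjustment (adjusted p = 0.212). It did with libraries scaled on the spike-in RNAs (0.78, adjusted p = 0.0133 in edgeR with BH).

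The longest run of bases shared by the coding sequences of TPPF and TPPG was 33 bases, and no other pair of the 10 genes shared a longer one. It is shown because a read that lies wholly within it could not tell this pair apart. It lies at positions 273 to 305 of the 1107-base coding sequence of TPPF and 282 to 314 of the 1134-base coding sequence of TPPG, counted from the first base of the start codon in the RefSeq annotation.
Shared run of TPPF and TPPG: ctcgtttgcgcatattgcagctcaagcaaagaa
Over all 22 annotated transcripts of the 10 genes, at least 98.9% of the 50-base windows of each transcript were found in no transcript of another locus. The sources used here do not give the read length or the treatment of shared reads.

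The RefSeq sequence before TPPG (TAIR10.1, minus strand, chr4:11896481-11896730) is given beside that of TRE1 because TPPG was the other gene called. It also holds none of the 4 motifs.
TPPG promoter: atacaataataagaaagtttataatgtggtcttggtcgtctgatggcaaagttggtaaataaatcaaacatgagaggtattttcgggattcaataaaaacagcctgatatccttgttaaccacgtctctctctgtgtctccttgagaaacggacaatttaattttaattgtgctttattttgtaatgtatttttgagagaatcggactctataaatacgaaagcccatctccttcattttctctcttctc

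The counts of TRE1 and TPPG within 1 library can be set against each other with no library scaling, since both genes have 1 annotated transcript. TRE1 counts per TPPG count were 0.177, 0.202 and 0.367 in ethylene replicates 1 to 3, against 1.59, 1.01 and 1.70 in air replicates 1 to 3. In each ethylene library TRE1 had fewer counts than TPPG, and in each air library it had more. Per kilobase of transcript, TPPG stood at 16.5 ± 1.48 CPM and TRE1 at 3.06 ± 1.05 CPM after ethylene, whereas after air TPPG stood at 12.4 ± 1.86 and TRE1 at 13.3 ± 2.90 (SD, n = 3 each). After air the levels per length of these genes differed by less than their spread. The ratio of TPPG to TPPF counts was 4.47 ± 0.205 after ethylene and 4.22 ± 0.757 after air, a difference smaller than the SD between the air libraries.

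**Figure D2:**
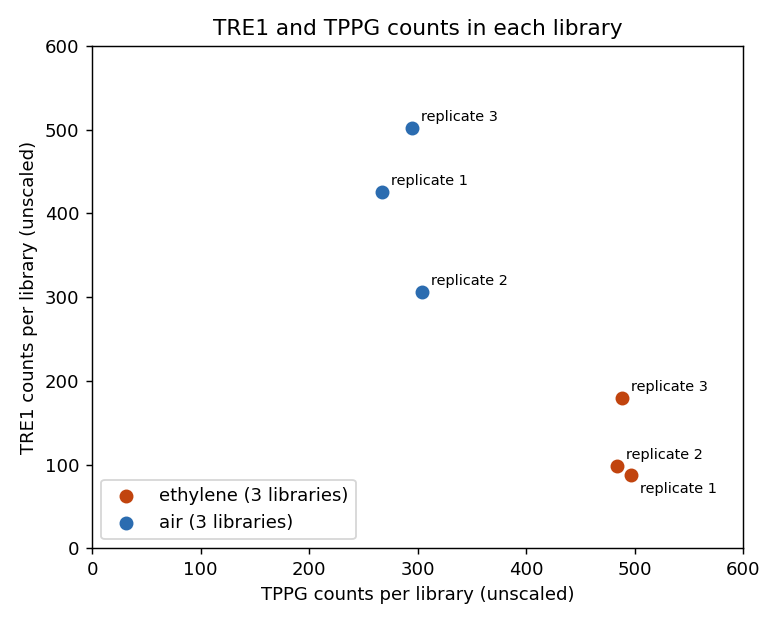
Unscaled TRE1 counts against unscaled TPPG counts, with each point 1 library, orange for ethylene and blue for air. The ethylene libraries lie at 88 to 179 TRE1 counts and 484 to 497 TPPG counts, and the air libraries at 306 to 502 TRE1 counts and 267 to 304 TPPG counts.

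TPPD (AT1G35910), the remaining gene with 1 transcript, encodes a phosphatase of the chloroplast. It had 42, 22 and 29 counts after ethylene, against 8, 30 and 15 after air. The groups overlapped because air replicate 2 was higher than 2 of the ethylene libraries, and the log2 fold change of 0.45 ± 0.51 did not pass the test in edgeR with BH adjustment (adjusted p = 0.545). Without air replicate 2 the value was 1.11 (adjusted p = 0.125 in edgeR with BH), and without air replicate 1 it was 0.03. Per kilobase of transcript, TPPD stood at 1.20 ± 0.479 CPM after ethylene and 0.889 ± 0.626 after air, and TPPF at 3.69 ± 0.369 and 2.95 ± 0.213 (SD, n = 3 each). Among the 4 genes with 1 transcript the order of levels per length was TPPG, TPPF, TRE1 and TPPD after ethylene, and TRE1, TPPG, TPPF and TPPD after air. After ethylene TPPF and TRE1 differed by less than the SD of TRE1, and after air TRE1 and TPPG did.

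The other 6 genes have 2 to 5 annotated transcripts each, and their counts were low, with totals of 52 to 248 over the 6 libraries. Of their transcripts, 7 had 0 counts in every library, and 2 of those, TPPA.2 and TPPA.4, have no 50-base window that another transcript lacks. The other 5 of those 7 had between 45 and 82 such windows, and TPPA.1, with 42 windows of its own, had 43 counts. By comparison TPPG has 1714 windows of its own and 2335 counts. The sources used here do not say how reads shared by transcripts of 1 gene were counted, so the levels of these 6 genes are not set against those of TRE1, TPPG, TPPF and TPPD.

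**Figure D3:**
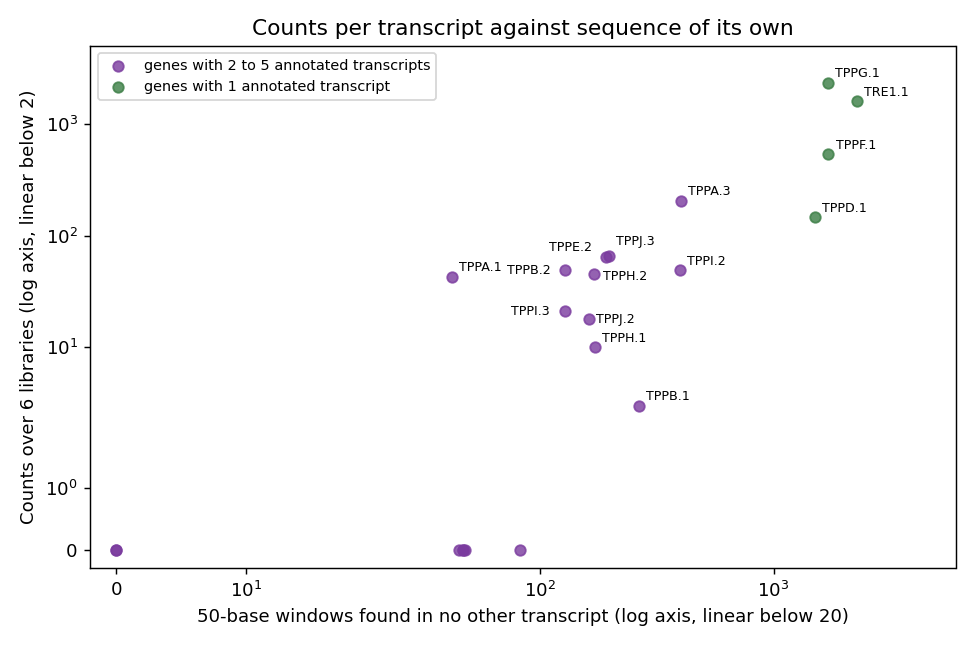
Counts summed over the 6 libraries for each of the 22 transcripts against the number of its 50-base windows that are in no other RefSeq transcript (both axes logarithmic with a linear part near 0). Transcripts of genes with several isoforms have at most 402 such windows and 205 counts, and 7 of them lie at 0 counts.

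TPPA (AT5G51460) and TPPB (AT1G78090) were the first plant genes of this family to be found by rescue of a yeast mutant. TPPA had 32, 46 and 38 counts after ethylene, against 40, 38 and 54 after air. In CPM the ethylene libraries, at 2.06 to 2.69, all lay below the air libraries, at 2.76, 3.11 and 4.11. The log2 fold change of -0.54 ± 0.27 (SE, n = 3 per group) did not pass the test in edgeR with BH adjustment (adjusted p = 0.154), and it was -0.09 with spike-in scaling. Most TPPA counts came from transcript TPPA.3, with 92 of 116 after ethylene and 113 of 132 after air. TPPB had 9, 13 and 12 counts after ethylene, against 4, 10 and 4 after air, and all but 3 of them came from transcript TPPB.2. The TPPB libraries overlapped, and the log2 fold change of 0.54 ± 0.53 did not pass the test (edgeR adjusted p = 0.475 with BH).

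TPPE (AT2G22190), another phosphatase of the chloroplast that was linked to root growth under abscisic acid, and TPPH (AT4G39770) were 81.0% identical over 1041 aligned coding bases. TPPE had 8, 10 and 16 counts after ethylene, against 10, 11 and 10 after air, and its log2 fold change, -0.23 ± 0.43, did not pass (adjusted p = 0.727 with BH in edgeR). TPPH did not pass the filter, with 10, 6 and 7 counts after ethylene, against 7, 23 and 2 after air. Air replicate 2 held 23 of the 32 air counts of TPPH. In neither gene were the groups of libraries separate. With few counts and wide scatter between the air libraries, no change of TPPH was detected (DESeq2 log2 fold change -0.87 ± 0.87, adjusted p = 0.516 with BH).

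TPPI (AT5G10100), a phosphatase linked to stomatal closure in drought, and TPPJ (AT5G65140) were also 81.0% identical, over 1088 aligned coding bases. TPPI had 6, 17 and 22 counts after ethylene, against 10, 5 and 10 after air, and in CPM ethylene replicate 1 was the lowest and the other ethylene libraries the highest of all 6. Its log2 fold change of 0.48 ± 0.51 did not pass the test (edgeR adjusted p = 0.515 with BH). TPPJ had 21, 16 and 19 counts after ethylene, against 14, 8 and 6 after air. Its highest air library, at 0.964 CPM, lay just above its lowest ethylene library, at 0.936 CPM, and the log2 fold change of 0.66 ± 0.42 did not pass the test (edgeR adjusted p = 0.264 with BH). Most TPPJ counts came from transcript TPPJ.3, with 47 of 56 after ethylene and 19 of 28 after air. Tested on its own among 19123 transcripts, of which 30.5% were called, TPPJ.3 had a log2 difference of 0.97 ± 0.47 (SE; edgeR adjusted p = 0.144 with BH), and in the authors' deposited table it had 0.99 with no adjusted p. Of the 22 transcripts, 7 were tested and those of TRE1 and TPPG were called. In the authors' deposited table, TPPF (adjusted p = 0.341), TPPA.3 (0.195), TPPD (0.600) and TPPE.2 (0.835) did not reach an adjusted p under 0.05 either.

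The motif search found the G-box, held by 6.49% of 27442 promoters of protein-coding genes, in 3 of the 10 promoters, those of TPPE, TPPH and TPPJ. They are shown, with the G-box in capitals, because 2 of the 3 belong to a pair of close relatives. Over the 20 bases that start 4 bases before the G-box, the TPPE and TPPH windows had 17 identical bases. That number includes the G-box itself, on which the windows were aligned, and no other pair of windows was compared. The windows are from RefSeq TAIR10.1, all on the minus strand, at chr2:9436724-9436749 for TPPE, chr4:18451536-18451555 for TPPH and chr5:26022442-26022467 for TPPJ.
TPPE: tggaagggacCACGTGgcgcttgatg
TPPH: ggacCACGTGgcggttactg
TPPJ: ggctcggggaCACGTGgccttagaaa
The G-box began 81 bases before the annotated gene start in TPPE, 246 in TPPH and 77 in TPPJ. The TPPA promoter held the core CCGAC on its opposite strand, and the TPPE promoter held TATCCA. The GCC box was in none of the 10 promoters. None of TPPA, TPPE and TPPJ was called in either direction, TPPH was not tested, and a match is a description and not a binding site.

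The 9 phosphatase genes together had 47.4, 42.6 and 40.7 CPM in ethylene replicates 1 to 3, against 29.9, 40.0 and 35.8 CPM in air replicates 1 to 3. This is a sum of deposited counts and not a level per length. TPPG alone held 66.8 ± 0.713% of these counts after ethylene and 62.2 ± 0.623% after air (SD, n = 3 each). The sum therefore mostly follows TPPG. Of the 8 phosphatase genes tested, 6 had a positive and 2 a negative log2 fold change, with a median of 0.43 against 0.02 over all loci. Only TPPG of these 8 was called, and the share of positive values over all loci was not computed. TPPH, not among the 8, had -0.87 ± 0.87 in DESeq2 (SE). The direction of small changes depended on the scaling. Scaling on the 92 spike-in RNAs gave all loci a median log2 fold change of 0.47 in place of 0.02, and the median of the 8 phosphatase genes became 0.88. On that scale TPPG (0.88) and TPPF (0.78) were called higher and TRE1 (-1.70) lower, against 40.0% of all loci called higher and 4.63% lower, and TPPE had 0.20 in place of -0.23, uncalled on either scale. All changes given here are relative to TMM scaling unless stated.

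**Figure D4:**
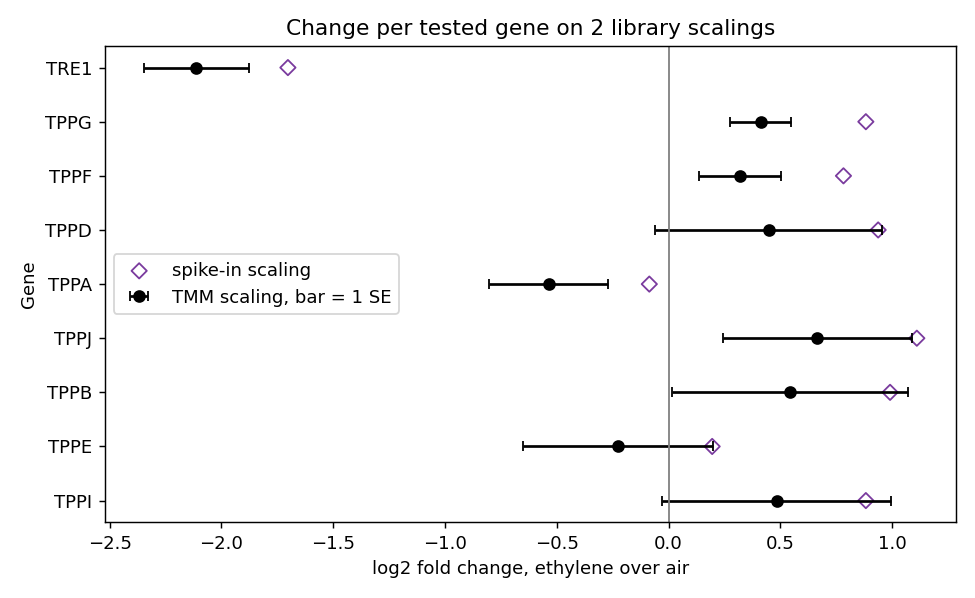
Log2 fold change of ethylene over air for the 9 genes tested, with filled circles and bars for the value and 1 SE with TMM scaling and open diamonds for spike-in scaling. TRE1 lies at -2.11 and -1.70, and every gene moves to the right with spike-in scaling.

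Other genes around trehalose 6-phosphate moved in both directions. The list held the 11 synthase genes, TPPC, the enzyme genes UGP1, UGP2, HXK1 and HXK2 for UDP-glucose and hexose phosphates, and 5 genes of the SnRK1 kinase complex. Of its 21 loci, 16 were tested, 2 rose and 5 fell at an adjusted p under 0.05 in edgeR with BH adjustment, against 15.8% higher and 16.8% lower over all loci. The median log2 fold change of the list was -0.22. TPS1, the main active synthase, rose by 0.55 ± 0.16 (edgeR adjusted p = 0.0248 with BH), with 11.9, 13.4 and 10.3 CPM after ethylene, against 7.85, 8.51 and 7.99 CPM after air. This call was lost without ethylene replicate 1, ethylene replicate 2, air replicate 1 or air replicate 3 (adjusted p = 0.0574, 0.0978, 0.0894 and 0.0592 in edgeR with BH).

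The class II synthase genes encode proteins with a synthase-like and a phosphatase-like domain for which synthase activity has mostly not been shown. Of the 6 tested, 4 fell, against 16.8% of all loci, and the largest fall of the 4 was that of TPS11. It had 41.3, 47.1 and 47.4 CPM after ethylene, against 212.6, 204.8 and 279.7 CPM after air, a fall of 2.36 ± 0.13 (edgeR adjusted p = 9.70e-06 with BH). HXK1, a hexokinase that also senses glucose, rose by 0.74 ± 0.12 (adjusted p = 0.00114 with BH in edgeR), with 167.5, 147.8 and 139.5 CPM after ethylene, against 95.8, 101.4 and 75.8 CPM after air. KINBETA1, a beta subunit of SnRK1, fell by 2.08 ± 0.24 (edgeR adjusted p = 0.000172 with BH), with 1.55, 2.40 and 1.72 CPM after ethylene, against 7.51, 7.36 and 9.14 CPM after air. The kinase genes KIN10 and KIN11 had log2 fold changes of -0.19 ± 0.21 and -0.02 ± 0.21, neither past the test. TPPC, the phosphatase gene outside the 10, had 2, 3 and 0 counts after ethylene and 0 in each air library, and was not tested.

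**Figure D5:**
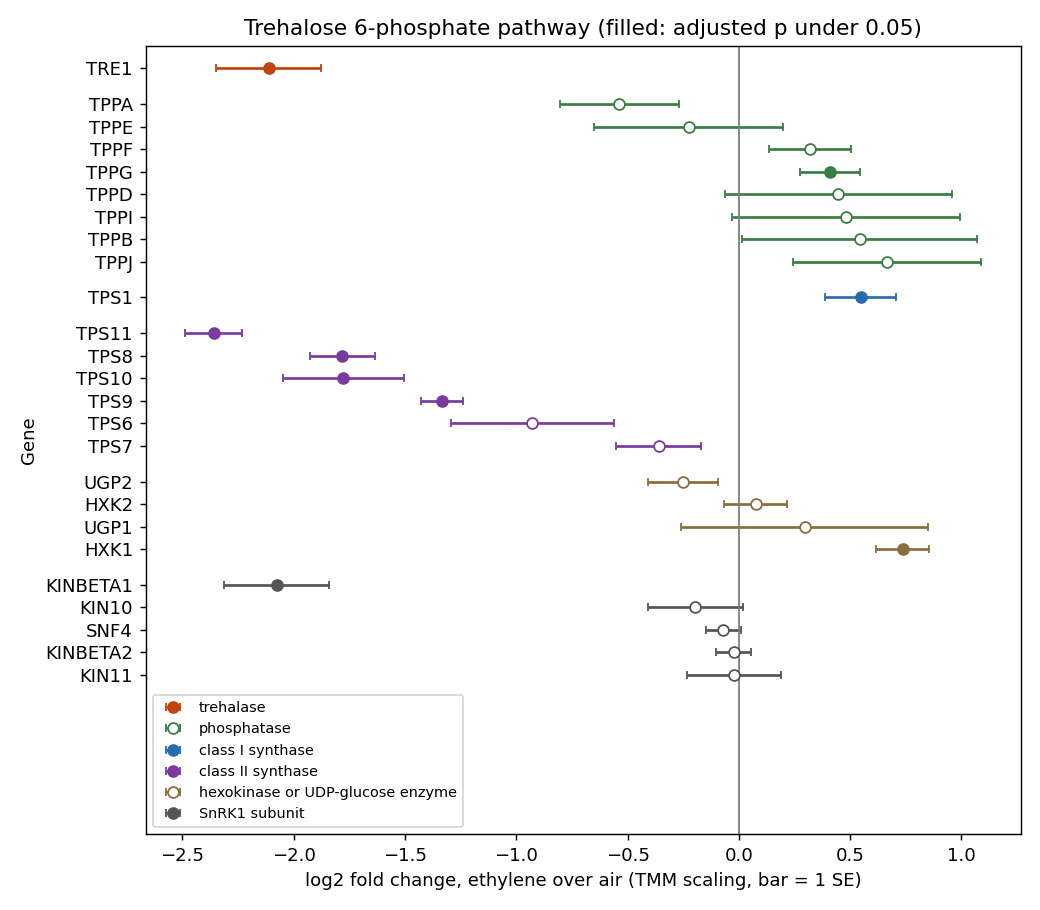
Log2 fold change of ethylene over air with TMM scaling for the tested genes around trehalose 6-phosphate, grouped by role, with bars of 1 SE and filled circles for an adjusted p under 0.05 in edgeR. TRE1 and TPS11 lie furthest to the left, at -2.11 and -2.36, and TPPG is the filled circle among the phosphatases at 0.41.

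Libraries held 14805466, 15973885 and 17116359 plant counts in ethylene replicates 1 to 3 and 15278372, 12870604 and 14038341 in air replicates 1 to 3, so that 1 count was 0.0584 to 0.0777 CPM before TMM scaling. Green tissue was present, with summed levels of 4 leaf markers of 16702 to 19684 CPM after ethylene and 20589 to 21069 CPM after air. Of these 4 leaf markers 1 was called, PSAF, which fell by 1.19 on the log2 scale (edgeR adjusted p = 1.38e-05 with BH), and its mean level was 1544 CPM after ethylene and 3511 CPM after air. Among markers of other tissues, 4 of 4 xylem genes rose, against 15.8% of all loci (summed level 165.5 to 208.7 CPM after ethylene and 78.3 to 102.3 CPM after air). Of 4 guard cell genes 1 rose, KAT1, with a mean of 18.6 CPM after ethylene and 10.3 CPM after air, and it carried the difference in the summed level (23.5 to 25.4 CPM after ethylene and 14.2 to 19.9 CPM after air). The other 3, FAMA, MYB60 and HT1, had log2 fold changes of -0.44, -0.28 and -0.13, or 0.01, 0.16 and 0.31 with spike-in scaling, and were not called. By edgeR with TMM scaling 0 of 4 tested root genes were called in either direction (summed level of 5 root genes 97.0 to 123.7 CPM after ethylene and 41.7 to 98.2 CPM after air). All 4 had a positive log2 fold change, with a median of 0.55 against 0.02 over all loci. With spike-in scaling 4 of 4 were called higher, against 40.0% of all loci, with a median of 1.03 against 0.47 over all loci. The 4 tested root genes, CASP1, COBL9, EXPA7 and PRP3, had an unadjusted p of 0.0166, 0.0245, 0.305 and 0.179 in edgeR with TMM scaling. Their adjusted p with BH was 0.0507, 0.0682, 0.451 and 0.306. Of 3 seed storage genes 1 was tested and rose, SESA5, against 15.8% of all loci. Its log2 fold change was 3.41 (edgeR adjusted p = 0.000887 with BH), with a mean of 11.6 CPM after ethylene and 1.09 CPM after air. SESA1 had 1 count after ethylene and 0 after air, and CRA1 was at 0 in every library. In whole seedlings fewer cells of a type and less transcript per cell cannot be told apart, and the part of tissue composition in the TRE1 and TPPG values was not tested.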

How the data were processed

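For each of the 6 libraries the authors deposited raw counts by transcript, as whole numbers. Per the labels' protocols, mRNA was enriched before library preparation. The sources used here give no aligner, counting program, genome build or strand setting. The authors' deposited comparison table holds log2 fold changes, p-values and a signal per library equal to counts divided by 1 factor; its columns for air replicates 1 and 3 hold each other's counts, which leaves the contrast as it is.

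Counts of 54013 transcript identifiers were summed to 32833 loci, and 92 spike-in RNAs were kept out of library sizes. Loci were tested with edgeR 4.0.16 (R 4.3.3): TMM factors, filterByExpr (minimum count 10, minimum total 15), the group alone as design, and BH adjustment over 17887 loci. SE is the fold change divided by the square root of F. DESeq2 1.42.0 was an alternative, and both the locus and the transcript test were checked on simulated counts. Those counts were drawn from the means and spread fitted to these same 6 libraries. The check therefore cannot show whether the scatter among them is technical. No replicate pair agreed within sampling noise (chi-square per degree of freedom of 5.34 to 29.0). Sequences came from RefSeq TAIR10.1, which held 53219 of the transcript identifiers, including all 22 of the 10 genes. Coding sequences were aligned with Biopython 1.88. All 10 genes are named; other pathway genes are named by the smallest p of the called genes of each kind, and likeness to TRE1 by the 3 highest correlations of log2 CPM with a prior count of 2. KIN10 and KIN11, TPPC and the named marker genes were picked after their values were seen. The genes and lists were chosen with earlier results of these data known.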

Additional observations from a re-analysis of the deposited data

How the results depend on the processing

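With TMM scaling 5834 of 17887 loci were called (32.6%), 2827 higher (15.8%) and 3007 lower (16.8%). With spike-in scaling 7989 were called (44.7%), 7160 higher (40.0%) and 829 lower (4.63%). Leaving out 1 library gave 4361 to 5903 loci called, and the replicate number as a block gave 5574. TRE1 kept its direction and its call in all 12 alternatives, with log2 fold changes of -2.44 to -1.94 when 1 library was left out. Of the 10 genes, 2 were called, 1 higher and 1 lower; leaving out 1 library gave 1 to 2 called and 0 to 1 higher, and spike-in scaling gave 2 higher. Among their transcripts 2 were called with TMM scaling, against 30.5% of all transcripts tested. There were 4 with spike-in scaling and 1 to 2 when 1 library was left out. The share of all transcripts called with spike-in scaling was not computed, and of all loci 44.7% were called there. Of the other pathway loci 2 were higher, 4 with spike-in scaling and 1 to 2 when 1 library was left out. With the replicate number as a block, 1 of the 10 genes was called, 0 of them higher, and 1 transcript was called; TPPG had an adjusted p of 0.0581 there in edgeR with BH. Over all tested loci, deviations from the group means had low correlations between same-numbered libraries (r = 0.02, -0.06 and 0.12 for replicates 1 to 3). These numbers follow the deposited counts, and the authors' deposited comparison exchanges air replicates 1 and 3. Whether same-numbered libraries shared a batch was not tested. TPPE had 0.20 with spike-in scaling in place of -0.23, uncalled in both; that scaling moved the median of all loci likewise, to 0.47 in place of 0.02. Over the tested genes and alternatives, 98 values kept direction and call, 6 lost a call, all of TPPG, 1 gained one (TPPF) and 1 turned its direction (TPPE). The genes with several transcripts rest on few counts, which limits what could be detected.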

Other observations

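Among the genes with several annotated transcripts, the counts over the 6 libraries per 100 windows of 50 bases found in no other transcript ranged widely. They were 102 for TPPA.1 and 51.0 for TPPA.3, 38.3 for TPPB.2 and 1.13 for TPPB.1, and 33.7 for TPPE.2. TPPH.2 had 26.5 and TPPH.1 5.81, TPPI.3 had 16.4 and TPPI.2 12.3, and TPPJ.3 had 33.3 and TPPJ.2 11.1. The 5 other transcripts with such windows had 0 counts. Whether the deposited counts hold only reads that tell transcripts apart was not tested.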
